A study of Arabidopsis thaliana with 9 samples.

Results

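AT1G52050, AT1G52060 and AT1G52070 are 3 genes that follow each other on chromosome 1 of Arabidopsis thaliana, with no other annotated locus between them. They are jacalin-type lectin genes by general knowledge of the family; the annotation used here lists them by locus tag only. They were selected as adjacent loci, each with a probe set of its own, after their signals in the 3 groups of arrays were known. They make up 3 of the 13286 genes that a probe set measured singly. Because those signals chose them, their differences between the groups are given as a description, with no test.

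Whole seedlings were harvested together with their roots, their RNA was measured on Affymetrix ATH1 arrays with 1 sample on each, and the authors deposited log2 signals made by RMA (robust multi-array average). All plants were wild type and 10 days old, and had been grown without sucrose on Gamborg's medium with 0.7% agar, after 3 days of stratification, at 22 °C in constant light of about 60 to 80 microE. The 9 arrays came from 3 groups. In the first, 2 arrays held Col-0, the standard laboratory accession, after a mock move to a fresh chamber at 22 °C. In the second, 5 arrays held Col-0 after 24 h at 4 °C, and 2 of those 5 carried the words set 4 in their titles. In the third, 2 arrays held WS (WS2 in the ecotype label), another accession, after 24 h at 4 °C. No WS array at 22 °C was used here, so the cold response of WS was not tested, and a difference between WS and Col-0 in the cold may or may not be present at 22 °C. The labels leave the words q6ws and q8ws in the WS titles unexplained. It is not stated that the arrays within a group hold separate cultures, and p-values then reflect only the spread among these samples, which may be technical.

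Jacalin-related lectins are carbohydrate-binding proteins named after a lectin of jackfruit seeds. The family is large in Arabidopsis and its relatives, and many of its genes lie beside each other. Some members bind myrosinase, the enzyme that cleaves glucosinolates when tissue is damaged, and others gather around PYK10, the main β-glucosidase of ER bodies, which are compartments of the endoplasmic reticulum found in roots and seedlings. The individual functions of AT1G52050, AT1G52060 and AT1G52070 are not assumed here.

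All 3 genes had their highest signals in cold-treated WS seedlings, about 4-fold above cold-treated Col-0, while Col-0 seedlings at 22 °C and 4 °C lay closer together. The WS difference was of nearly the same size in the 3 genes. The difference between cold and 22 °C in Col-0 ran from -0.45 in AT1G52050 to 0.71 in AT1G52070 (log2).

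For AT1G52050 the log2 signals were 5.12 and 5.36 in Col-0 at 22 °C, then 4.77, 4.15, 4.91, 5.02 and 5.10 in Col-0 at 4 °C (the last 2 from set 4), and 6.56 and 7.12 in WS at 4 °C. Both WS arrays lay above every Col-0 array, and cold-treated Col-0 replicate 2 was the lowest of all 9. The means were 5.24 ± 0.16 (SD, n = 2) in Col-0 at 22 °C, 4.79 ± 0.38 (n = 5) in cold Col-0 and 6.84 ± 0.40 (n = 2) in cold WS.

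For AT1G52060 the signals were 5.66 and 5.96 in Col-0 at 22 °C, then 6.08, 5.47, 5.88, 5.71 and 6.37 in Col-0 at 4 °C, and 7.78 and 8.22 in WS at 4 °C. The Col-0 arrays of both temperatures overlapped throughout, and the WS arrays again stood above all of them. The means were 5.81 ± 0.21 (SD, n = 2), 5.90 ± 0.35 (n = 5) and 8.0 ± 0.31 (n = 2) in the same order of groups.

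For AT1G52070 the signals were 5.30 and 6.17 in Col-0 at 22 °C, then 6.77, 5.76, 6.57, 5.90 and 7.24 in Col-0 at 4 °C, and 8.07 and 8.80 in WS at 4 °C. This gene spread most within groups, and its Col-0 arrays of both temperatures overlapped. The means were 5.73 ± 0.62 (SD, n = 2), 6.45 ± 0.62 (n = 5) and 8.43 ± 0.51 (n = 2). Signals of different probe sets have no common scale, so these levels were not ranked between the 3 genes.

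**Figure D1:**
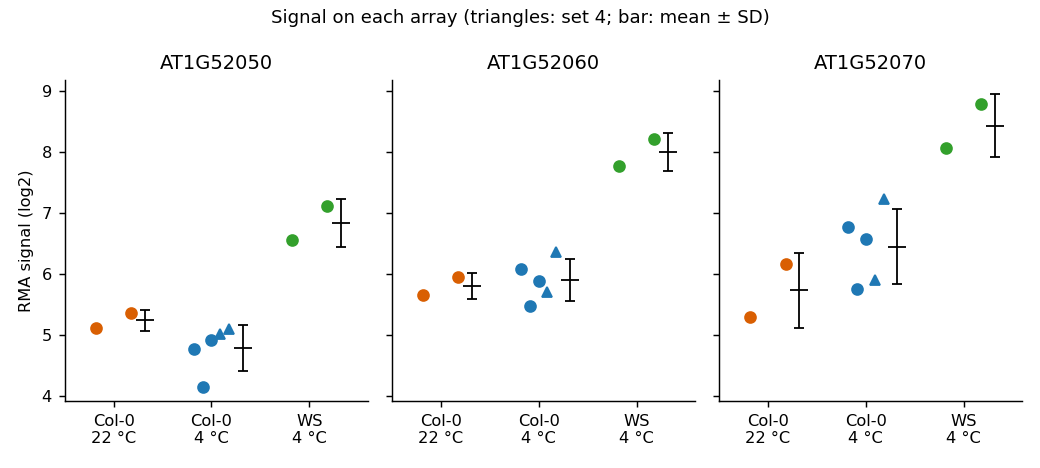
RMA signal (log2, vertical axis) of the 3 genes on each of the 9 arrays, by group along the horizontal axis. Points are arrays, triangles the set 4 arrays, and the bars beside them the group mean ± SD (n = 2, 5 and 2). In each panel both WS arrays lie above all 7 Col-0 arrays, by at least 0.83 on the log2 scale.

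The difference of cold-treated WS from cold-treated Col-0 was 2.04 (log2, SE 0.26) for AT1G52050, a 4.13-fold higher signal. It was 2.09 (SE 0.23, 4.27-fold) for AT1G52060. It was 1.98 (SE 0.42, 3.96-fold) for AT1G52070. Among all 22746 probe sets tested, ordered from the highest difference down, the 3 genes stood at ranks 34, 30 and 38. The 3 differences come from the same arrays, so these SEs do not measure the spread between genes. Their likeness in size was known when the genes were chosen and was not tested.

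The lowest WS array exceeded the highest cold Col-0 array by 1.46 for AT1G52050, by 1.40 for AT1G52060 and by 0.83 for AT1G52070 (log2). All WS arrays thus lay above all cold Col-0 arrays in 3 of 3 genes, as in 12.1% of all probe sets; the genes were chosen on these values, so nothing is read from the count. Leaving out WS replicate 2 or WS replicate 1 gave the lowest and the highest differences, which ran from 1.76 to 2.33 for AT1G52050, from 1.87 to 2.32 for AT1G52060 and from 1.62 to 2.35 for AT1G52070. In whole seedlings a higher signal can come from more cells of an expressing type or from more RNA per cell, and these cannot be told apart.

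Against Col-0 at 22 °C the WS differences separated the 3 genes more. This comparison mixes accession and temperature, and it shares its WS arrays with the one above. The log2 difference was 1.60 (SE 0.30, 3.02-fold) for AT1G52050. It was 2.19 (SE 0.28, 4.55-fold) for AT1G52060. It was 2.70 (SE 0.50, 6.5-fold) for AT1G52070, the gene with the widest spread between its Col-0 arrays at 22 °C. The WS arrays lay above both arrays of Col-0 at 22 °C in 3 of 3 genes, as in 34.5% of all probe sets, with gaps of 1.20, 1.82 and 1.90 from AT1G52050 to AT1G52070.

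Cold against 22 °C within Col-0 gave a log2 difference of -0.45 (SE 0.26) for AT1G52050. For AT1G52060 it was 0.09 (SE 0.23), and for AT1G52070 it was 0.71 (SE 0.42), or 1.64-fold. All 5 cold arrays lay below both 22 °C arrays in 1 of 3 genes, AT1G52050, with a gap of 0.02 on the log2 scale; 19.2% of all probe sets showed this order. The sign for AT1G52060 turned to -0.06 without Col-0 22 °C replicate 1 and to -0.03 without set 4 replicate 2. The value for AT1G52070 was 0.28 without Col-0 22 °C replicate 1 and 1.15 without replicate 2. The arrays of Col-0 at 22 °C and at 4 °C overlapped in AT1G52060 and AT1G52070.

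The set name was not used in choosing the genes, so set 4 against the other 3 cold Col-0 arrays was tested. The log2 difference was 0.45 (SE 0.25, limma adjusted p = 0.546) for AT1G52050. It was 0.24 (SE 0.25, limma adjusted p = 0.795) for AT1G52060. It was 0.20 (SE 0.46, limma adjusted p = 0.918) for AT1G52070. None of the 3 passed, where 0.0044% of all probe sets did (1 of 22746, at a Benjamini-Hochberg adjusted p under 0.05 and a log2 difference of at least 1 in size). Without set 4 replicate 2 the difference turned to -0.10 for AT1G52060 and to -0.47 for AT1G52070, and without cold Col-0 replicate 2 that of AT1G52070 turned to -0.10.

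Within groups, the 3 genes tended to be high or low on the same arrays. On cold Col-0 replicate 2, which was the lowest of the 5 cold Col-0 arrays for all 3 genes, the deviations from the group mean were -0.64 for AT1G52050, -0.43 for AT1G52060 and -0.69 for AT1G52070 (log2). On set 4 replicate 2, the highest for all 3, they lay 0.31, 0.47 and 0.79 above it. Replicate 2 was also the higher array for all 3 genes in Col-0 at 22 °C and in WS. Set 4 replicate 1 was the array where they parted, with 0.23 for AT1G52050 against -0.19 for AT1G52060 and -0.55 for AT1G52070.

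Markers of roots were low and high on the same arrays, and their part in the spread of the 3 genes was not tested. The list of 40 root marker genes held root hair cell wall proteins, peroxidases and transporters. It was made with earlier results of these data known. Of the 40 genes, 15 had a probe set of their own, none of them for a transporter. Their mean log2 signal lay between 6.18 and 6.35 in Col-0 at 22 °C, between 5.73 and 6.92 in Col-0 at 4 °C and between 6.33 and 6.68 in WS, and none was at 0. Cold Col-0 replicate 2 was the lowest cold Col-0 array for 12 of the 15, and set 4 replicate 2 the highest for 11. The share of all probe sets with this order was not counted, so whether it is particular to root genes was not tested. In set 4 against the other cold Col-0 arrays, 13 of the 15 had a positive difference, with a median of 0.72 and 0 called; the median of all probe sets was -0.02.

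**Figure D2:**
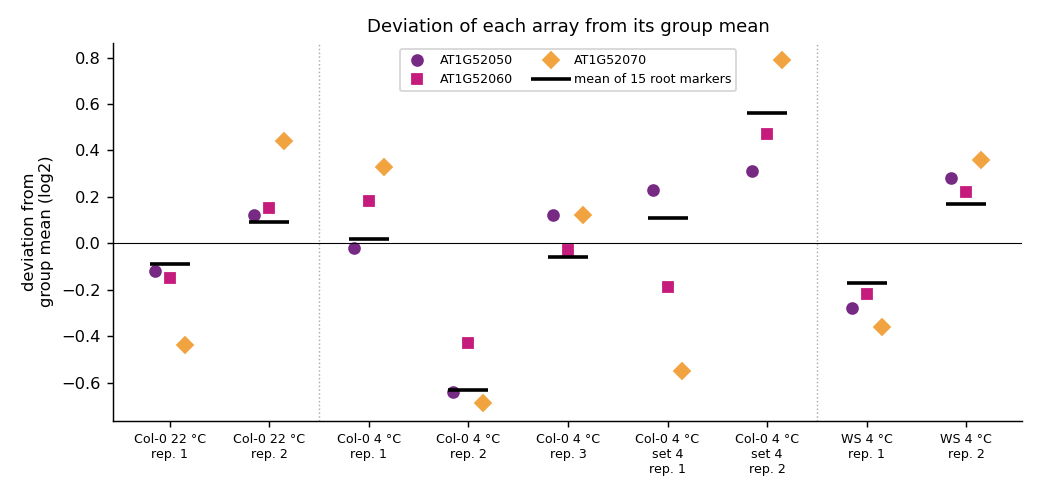
Deviation of each array from its group mean (log2, vertical axis) for the 3 genes (symbols) and for the mean of the 15 measured root markers (black dashes), with the 9 arrays along the horizontal axis and dotted lines between groups. Cold Col-0 replicate 2 is low and set 4 replicate 2 high for the genes and the markers alike, with root marker deviations of -0.63 and 0.56.

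Between the groups no root marker was called. In WS against cold Col-0, 0 of the 15 were called and their median difference was 0.20, with values from -0.57 to 1.35; the highest was AT3G01190, a peroxidase gene, at 1.35 (SE 0.44, limma adjusted p = 0.122). AT2G39040 differed by 0.79 in this comparison (SE 0.15, limma adjusted p = 0.0201), under the minimum log2 difference of 1. In cold against 22 °C in Col-0, 0 of 15 were called, with a median of 0.14. There AT2G39040 differed by -0.51 (limma adjusted p = 0.0303), again under the minimum. When every array was centred on its mean root marker signal, an alternative chosen after seeing the data, the WS differences from cold Col-0 were 1.90 for AT1G52050, 1.95 for AT1G52060 and 1.84 for AT1G52070, and the median of all probe sets moved to -0.139. The set 4 differences turned to -0.11, -0.32 and -0.35 under this centring, where the median of all probe sets was -0.572.

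Photosynthesis genes served as markers of the shoot. Of 37 photosynthesis genes, 7 had a probe set of their own, and their mean log2 signal lay between 12.26 and 12.57 in Col-0 at 22 °C, between 11.44 and 11.75 in Col-0 at 4 °C and between 11.38 and 11.55 in WS. In WS against cold Col-0, 0 of the 7 were called, with a median of -0.08. In the cold, where 12.0% of all probe sets were called, 2 of the 7 were called, both lower. They were LHCB4.2, an antenna protein of photosystem II (-1.86, limma adjusted p = 0.00123), and PRK, a Calvin cycle kinase (-1.06, limma adjusted p = 0.00191). The PRK difference no longer reached the minimum of 1 when either set 4 array was left out (-1.0). In this comparison 0 of the 7 had a positive difference, and the median was -0.53. LHCB4.1 (-0.52, limma adjusted p = 0.00531) and PSAE-1 (-0.53, limma adjusted p = 0.00523) were under the minimum of 1. Between temperatures this list cannot tell the amount of green tissue from a change of these genes in the cold.

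Of the measured genes beside the 3 lectin genes, none passed the test in WS against cold Col-0. Among the 10 annotated loci on each side, 9 of 20 had a probe set of their own by the annotation. Those of AT1G52010 and AT1G52090 carry a mark of shared probes in their names. In WS against cold Col-0, 0 of these 9 were called (limma, adjusted p under 0.05 and at least 2-fold), where 2.14% of all probe sets were; the differences ran from -0.34 to 1.52 with a median of 0.04. The nearest measured locus on the left was AT1G52020, a pseudogene, with a difference of 0.07 (SE 0.09, limma adjusted p = 0.742). Its group means were 2.92 in Col-0 at 22 °C, 2.94 in cold Col-0 and 3.02 in WS, above at most 1.87% of probe sets. The nearest on the right was AR791 (AT1G52080), with -0.01 (SE 0.16, limma adjusted p = 0.981) and group means of 5.77 ± 0.21 (SD, n = 2) in Col-0 at 22 °C, 5.28 ± 0.20 (n = 5) in cold Col-0 and 5.27 ± 0.21 (n = 2) in WS. AT1G51990, AT1G52010 and AT1G52090 were also dim, with group means from 3.19 to 3.45. At such low signals, as in AT1G52020, a difference could be missed. MBP1 and MBP2, the myrosinase-binding protein genes of the same stretch, were not listed with a probe set of their own and were not analysed here.

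The highest of the 9 flanking values belonged to AT1G52000, a jacalin-type gene. Its signals were 6.33 and 5.37 in Col-0 at 22 °C, then 4.17, 4.38, 5.53, 3.82 and 4.15 in Col-0 at 4 °C, and 6.09 and 5.77 in WS. The WS arrays lay above all cold Col-0 arrays but within the range of Col-0 at 22 °C. Its WS difference from cold Col-0 was 1.52 (SE 0.42, limma adjusted p = 0.0797), and without cold Col-0 replicate 3 it passed, at 1.80 (adjusted p = 0.0106). With the replicate number as a block it also passed, at 1.80 (adjusted p = 0.0208).

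In the cold, 2 of the 9 flanking genes fell in Col-0 and none rose, where 12.0% of all probe sets were called. AT1G52000 fell by 1.44 on the log2 scale (SE 0.42, limma adjusted p = 0.0301). This call was lost without Col-0 22 °C replicate 1 (-0.96, adjusted p = 0.284), without cold Col-0 replicate 1 (adjusted p = 0.0629) or replicate 2 (adjusted p = 0.0551), and without set 4 replicate 1 (adjusted p = 0.054). AT1G52100, a jacalin-type gene on the other side, fell by 2.02 (SE 0.41, limma adjusted p = 0.00511). Its 22 °C arrays stood far apart, at 7.45 and 5.53, against 4.08 to 4.74 in the cold Col-0 arrays. The fall was -1.05 without Col-0 22 °C replicate 1 and -2.98 without replicate 2, both past the test. None of the other flanking genes was called in this comparison, and AR791 had a difference of -0.49 (adjusted p = 0.0513).

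**Figure D3:**
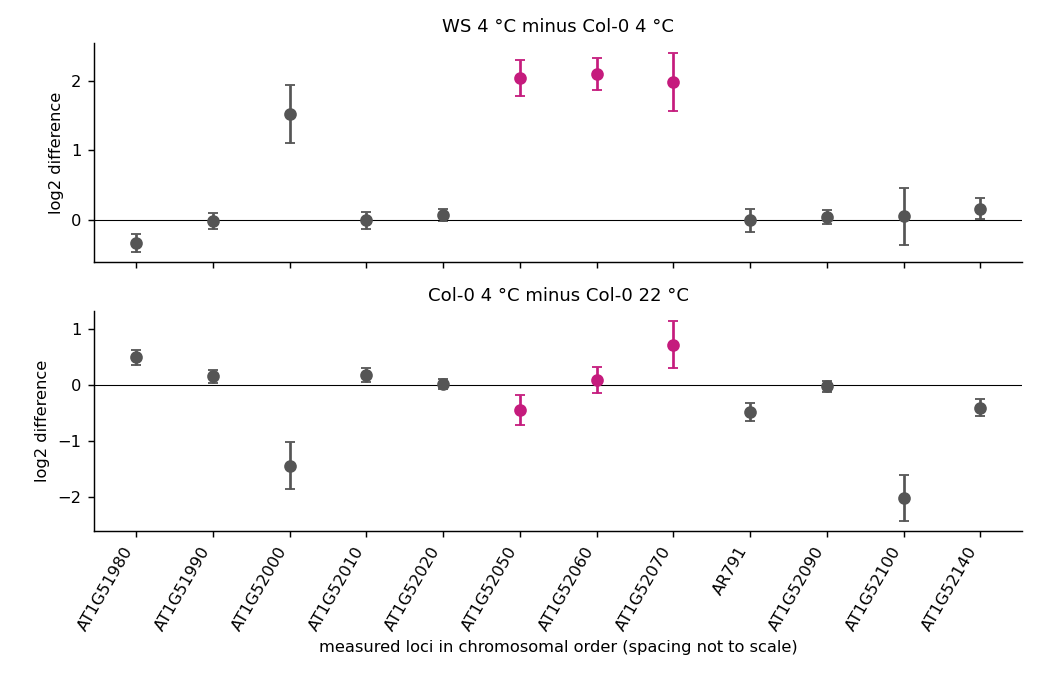
Difference (log2, vertical axis) ± SE of the 3 lectin genes (pink) and of the 9 flanking loci with a probe set of their own by the annotation (grey). Loci are in chromosomal order with spacing not to scale, for WS minus Col-0 at 4 °C (top) and Col-0 4 °C minus 22 °C (bottom). The 3 genes stand near 2 in the top panel beside neighbours from -0.34 to 0.16 and AT1G52000 at 1.52. Of these neighbours AT1G51990, AT1G52010, AT1G52020 and AT1G52090 had low signals in all groups. The lowest values in the bottom panel belong to AT1G52000 and AT1G52100.

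Runs of 3 neighbouring loci, each with a probe set of its own, numbered 2078, overlapping runs included. In 1 of them all 3 genes had a signal at least 2-fold higher in cold WS than in cold Col-0, and that run was AT1G52050 to AT1G52070. The genes were chosen with this pattern known, so the count describes the choice. The probe set names of the 3 genes carry no mark of shared probes, unlike those of the pseudogenes AT1G52010 and AT1G52090 nearby. Probe sequences were not used here, so cross-hybridisation between the neighbours, and the effect of sequence differences between WS and Col-0 on the probes, was not tested.

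Most other measured genes of the jacalin family were not called in any comparison. The family list, compiled from general knowledge with earlier results of these data known, held 45 further loci, of which 18 were measured by a probe set of their own. In WS against cold Col-0, 1 of the 18 rose and 1 fell, where 2.14% of all probe sets were called in either direction. The median difference was 0.07, beside 0.01 over all probe sets; 11 of the 18 differences were positive, and they ran from -2.85 to 1.52. All 18 differences lay below those of the 3 neighbouring genes. The 3 were chosen with their own differences known, so nothing is read from this order. Many of the 18 were dim in every group, where a difference could be missed. Group means ran from 2.91 to 3.41 in AT1G57570, AT1G60130, AT3G21380, AT5G46000 and AT5G49870. They ran from 3.56 to 4.27 in JAL23, AT1G05770 and AT3G59610. The array medians were 5.81 to 6.06.

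JAL33 and JAL34 are neighbours on chromosome 3 that encode lectins found with the PYK10 complex. JAL33 had signals of 9.75 and 9.90 in Col-0 at 22 °C, between 7.63 and 8.61 with a median of 8.45 in cold Col-0, and of 5.11 and 5.62 in WS. Its 3 groups did not overlap. Its signal was lower by 2.85 (SE 0.29, 7.19-fold, limma adjusted p = 0.000728) in WS than in cold Col-0. In the cold in Col-0 it was lower by 1.62 (SE 0.29, limma adjusted p = 0.0025). In WS against Col-0 at 22 °C it was lower by 4.46 (SE 0.34, 22.1-fold, limma adjusted p = 3.73e-05), where 14.2% of all probe sets were called. The effect of sequence differences between WS and Col-0 on its probes was not tested.

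JAL34 went the other way in WS. Its signals were 10.08 and 10.18 in Col-0 at 22 °C, then 9.62, 8.63, 9.45, 9.04 and 9.50 in cold Col-0, and 10.04 and 10.83 in WS. Both WS arrays lay above the 5 cold Col-0 arrays, and the 22 °C arrays lay within the WS range. It rose by 1.19 in WS against cold Col-0 (SE 0.29, 2.28-fold, limma adjusted p = 0.0488). That call was lost when any 1 array other than set 4 replicate 2 was left out, with adjusted p from 0.0541 to 0.346, the last without WS replicate 2 (difference 0.80). It was also lost with the replicate number as a block (1.24, adjusted p = 0.106).

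In the cold, 4 of the 18 fell in Col-0 and 0 rose, where 12.0% of all probe sets were called in either direction. The median was -0.13, beside 0.03 over all probe sets. They were AT1G52000, AT1G52100, JAL33 and JAL22, another lectin of the PYK10 complex. JAL22 had signals of 9.28 and 8.77 at 22 °C and between 6.44 and 7.46 in the cold arrays, with no overlap. It fell by 2.01 (SE 0.31, 4.03-fold lower, limma adjusted p = 0.00118). Its WS difference from cold Col-0 was 1.09 (SE 0.31, adjusted p = 0.0855), and 0.71 without WS replicate 2. JAL34 differed by -0.88 in the cold (adjusted p = 0.0449), under the minimum of 1.

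In WS against Col-0 at 22 °C, where 14.2% of all probe sets were called, 2 of the 18 fell and 0 rose. They were JAL33, above, and AT1G52100, which fell by 1.97 (SE 0.49, limma adjusted p = 0.0151). The call of AT1G52100 was lost without WS replicate 1 (adjusted p = 0.0633) and without WS replicate 2 (adjusted p = 0.0717), and the fall was -1.0 without Col-0 22 °C replicate 1 and -2.93 without replicate 2. Among genes not called in any comparison, AT2G25980 differed by -1.03 in WS against cold Col-0 (adjusted p = 0.0711) and AT5G28520 by 0.87 in WS against Col-0 at 22 °C (adjusted p = 0.00494, under the minimum of 1). AT5G35940 differed by -0.64 in the cold (adjusted p = 0.00217) and AT1G05770 by 0.60 in WS against cold Col-0 (adjusted p = 0.0883). The largest differences of AT1G19715 and JAL23 in the 3 comparisons were -0.50 and -0.24.

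**Figure D4:**
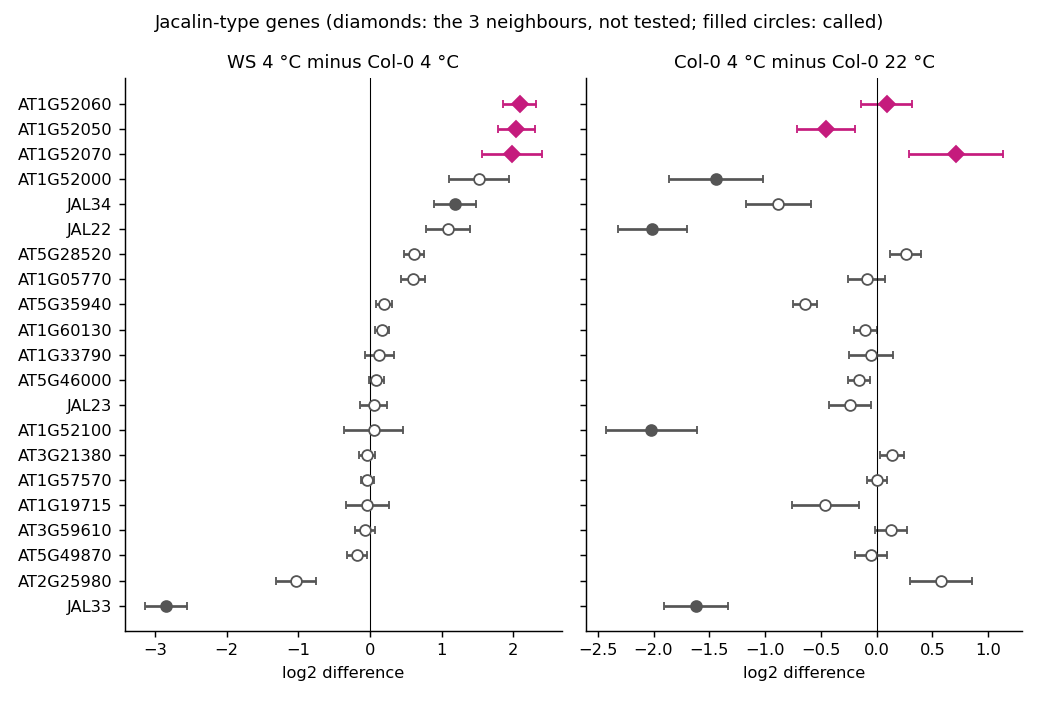
Differences (log2, horizontal axes) ± SE of the 3 neighbouring genes (pink diamonds, not tested) and of the 18 other measured jacalin-type genes (circles, filled where called), for WS minus Col-0 at 4 °C (left) and Col-0 4 °C minus 22 °C (right), ordered by the left panel. The 3 genes have the highest WS differences of the measured family genes, 1.98 to 2.09, and JAL33 the lowest, -2.85. The 3 genes were chosen with these differences known, so nothing is read from their place. Many of the other genes had low signals in all groups.

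Genes of the ER body, the compartment that holds PYK10, were measured for 4 of 13 listed loci. In the cold, where 12.0% of all probe sets were called, 1 of the 4 fell and 0 rose: NAI2, a structural protein of ER bodies, fell by 1.39 (SE 0.23, limma adjusted p = 0.00188). NAI1, the transcription factor needed for their formation, differed by -0.97 (adjusted p = 0.000596), just under the minimum, and PYK10 by -0.37 (adjusted p = 0.3). In WS against cold Col-0, where 2.14% of all probe sets were called, 1 of the 4 rose, AT3G20370, by 1.43 (SE 0.33, adjusted p = 0.0436), and PYK10 differed by 0.19 (SE 0.23, adjusted p = 0.748). The call of AT3G20370 was lost without any 1 of 7 arrays, namely both 22 °C arrays, cold Col-0 replicates 1 and 3, set 4 replicate 1 and both WS arrays, with adjusted p from 0.0547 to 0.302, and with the replicate number as a block (1.41, adjusted p = 0.112). In WS against Col-0 at 22 °C, with 14.2% of all probe sets called, NAI2 fell by 1.51 (SE 0.28, adjusted p = 0.00369) and none of the other 3 was called.

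Genes with a pattern most like each of the 3 were found over the 9 arrays among the 13285 other genes, by the root mean square difference between signals centred on their own means (a smaller value is more alike). AT1G52060 was the 5th nearest gene to AT1G52050, at 0.297 log2 units, and AT1G52050 the 10th nearest to AT1G52060. AT1G52060 was the 3rd nearest to AT1G52070, at 0.352. AT1G52050 and AT1G52070 were less alike, at 0.599, with 227 genes nearer to AT1G52050 than AT1G52070 was. The middle gene was thus nearer to either neighbour than the outer genes were to each other. Likeness over the 9 arrays includes the WS difference, which was known when the 3 genes were chosen. Their nearness to each other thus partly follows from the choice, and nothing is read from these ranks.

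Outside the 3, the nearest genes to AT1G52050 were AT5G15780 (0.241), AT1G48750 (0.266), AT1G05340 (0.274), AT4G27890 (0.295) and XTH18 (0.328), a xyloglucan endotransglucosylase/hydrolase of the cell wall. Those to AT1G52060 were AT1G48750 (0.178), PDF2.5 (0.188), a plant defensin, AT5G15780 (0.224), AT1G05340 (0.229) and AT5G19100 (0.252). AT5G15780, AT1G48750 and AT1G05340 stood in both sets. Those to AT1G52070 were AT2G16005 (0.314), PDF2.5 (0.335), AT4G39670 (0.355), AT4G13180 (0.396) and AT1G18980 (0.398). When likeness was taken over the 3 group means in place of the 9 arrays, 1, 3 and 0 of the 5 genes stayed among the nearest of AT1G52050, AT1G52060 and AT1G52070.

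The nearest gene to AT1G52060, AT1G48750, had group means of 8.10 ± 0.03 (SD, n = 2) in Col-0 at 22 °C, 8.16 ± 0.49 (n = 5) in cold Col-0 and 10.20 ± 0.16 (n = 2) in WS. Its 2 WS arrays, at 10.09 and 10.31, stood above all Col-0 arrays, the highest of which was set 4 replicate 2 at 8.81. Its lowest array was cold Col-0 replicate 2, at 7.44. PDF2.5 had means of 6.39 ± 0.44, 6.62 ± 0.36 and 8.38 ± 0.55, and AT2G16005, the nearest to AT1G52070, had means of 4.22 ± 0.37, 4.57 ± 0.44 and 6.25 ± 0.72 in the same groups. These genes were picked for their likeness, so their differences were not tested as support.

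**Figure D5:**
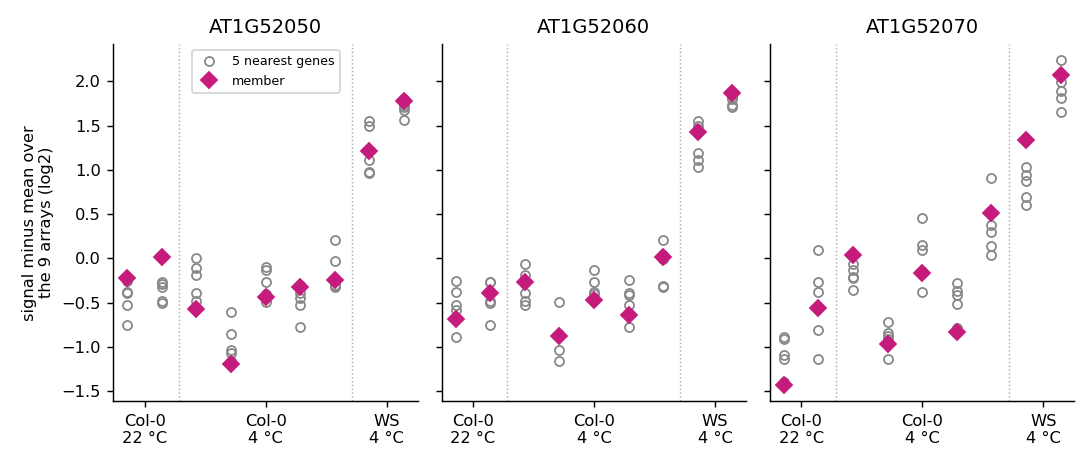
Signal minus the gene's own mean over the 9 arrays (log2, vertical axis) for each of the 3 genes (pink diamonds) and its 5 nearest other genes (grey circles), with the 9 arrays in group order along the horizontal axis and dotted lines between groups. In every panel the 2 WS arrays are the highest for the gene, and the nearest genes follow it within root mean square differences of 0.178 to 0.398.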

How the data were processed

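The values were made by the authors with RMA in the R package affy, per the submitters' processing notes (versions not given), and deposited as log2 signals for every array. The medians of the arrays ranged from 5.81 to 6.06. No detection calls entered, and precision is limited by how few arrays there are. Of 22810 probe sets, 64 controls were left out and 22746 tested. The probe annotation listed 1 gene for 13513 probe sets, several for 503 and none for 8730. Of the first, 13436 matched a locus in RefSeq's gene table (TAIR10.1), giving 13286 loci; the probe set with the highest mean stood for a gene. No coordinates are given, since the files name no build.

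The lmFit and eBayes functions of limma 3.58.1 (R 4.3.3) gave the differences, from 1 model of group means over the 9 arrays, or 4 means with set 4 apart. Benjamini-Hochberg adjustment ran across every tested probe set. A call needed a log2 difference of at least 1 in size with an adjusted p below 0.05. The procedure was tested on simulated data with independent noise, which leaves out effects that many genes share on an array.

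The 3 genes and the gene lists were chosen with earlier results of these data known. AT5G48210, of doubtful membership, was taken out of the jacalin list after values were seen; with it (19 measured) the counts of calls were the same. The text names the 3 genes, the called jacalin-type genes and the 6 others with the largest fold, called and nearest flanking genes, leading genes of the other lists, and the 5 genes most like each of the 3. Alternatives left out each array or set 4, kept only set 4 or gave it a term, added a replicate block, changed normalization, the filter on dim probe sets, the variance model, array weights or the arrays fitted, or centred on root markers.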

Additional observations from a re-analysis of the deposited data

Results flagged for a closer look

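Of the 27 genes checked for 1 array far from the others in the group of 5 cold-treated Col-0 arrays, XTH18 (AT4G30280), one of the 5 genes outside the 3 neighbours nearest to AT1G52050, had such an array. Cold Col-0 replicate 2 stood at 5.67, with the other 4 between 6.44 and 6.74 (log2 signal), so that its gap took 0.72 of the range of the group. Chance alone gives about 1 such group in 20, so 1 among the 27 genes is no excess. XTH18 was also picked for its likeness to AT1G52050, itself lowest on cold Col-0 replicate 2 (4.15).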

How the results depend on the processing

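Over the 20 alternatives run, the WS difference from cold Col-0 stayed between 1.76 and 2.33 for AT1G52050, 1.87 and 2.32 for AT1G52060 and 1.62 and 2.35 for AT1G52070. Same-numbered arrays of different groups had correlations of deviations from -0.33 to 0.29. Arrays with different numbers were not compared, and in a group of 2 arrays the deviations mirror each other. These correlations therefore cannot decide whether replicate numbers pair the arrays. With the replicate block 2637 probe sets were called in the cold, 393 in WS against cold Col-0, 3188 in WS against Col-0 at 22 °C and 0 in set 4 against the other cold Col-0 arrays; flanking genes called in WS against cold Col-0 went from 0 to 1 and ER body genes from 1 to 0. The set 4 differences of AT1G52050, AT1G52060 and AT1G52070 turned to -0.11, -0.32 and -0.35 with root-marker centring, and ranged from 0.22 to 0.60, -0.10 to 0.57 and -0.47 to 0.87 when 1 array was left out.

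In WS against cold Col-0, jacalin-type genes called went from 2 to 1 with set 4 left out, alone or as a term and with only the groups compared; flanking genes from 0 to 1 with median centring, array weights or root-marker centring; ER body genes from 1 to 0 with set 4 alone or only the groups compared; root markers from 0 to 1 with set 4 as a term; and all probe sets from 486 to 231 with set 4 alone. In WS against Col-0 at 22 °C, jacalin-type genes went from 2 to 1 and flanking genes from 1 to 0 with set 4 alone or only the groups compared. In the cold, flanking genes went from 2 to 1 with set 4 left out, alone or as a term; ER body genes from 1 to 3 with set 4 left out or as a term and to 2 with root-marker centring; root markers from 0 to 4 with set 4 alone; and shoot markers from 2 to 1 with set 4 left out or as a term. In set 4 against the other cold Col-0 arrays, 1 probe set became 0 with only the groups compared, 2 with quantile normalization or the trend and robust options, 3 with array weights and 1804 with root-marker centring. Leaving out 1 array gave 1 to 2 jacalin-type genes in either WS comparison, 1 to 2 flanking genes in the cold and 0 to 1 in either WS comparison, 1 to 2 ER body genes in the cold and 0 to 1 in WS against cold Col-0, 0 to 1 root markers in WS against Col-0 at 22 °C, 1 to 2 shoot markers in the cold, 285 to 549 probe sets in WS against cold Col-0 and 0 to 2 for set 4. Apart from the alternatives' own construction (fewer arrays), the cause was not tested.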
